A study of Mus musculus with 30 samples.

Results

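*R90W/W* retinas, in which both *Crx* copies carry a substitution in the DNA-binding homeodomain, were compared by RNA-seq with *E168d2/+* retinas, in which 1 copy carries a frameshift and the other is wild type (WT). Both groups came from C57BL6/J-background knock-in mice at postnatal day 10 (P10) and held 3 libraries each, 6 of the 30 libraries in the series. Whole retinas were used, each library was pooled from 4 retinas of male and female mice, and WT C57BL6/J retinas of the same age gave 3 further libraries. A gene was taken into the comparison if it reached 5 CPM, the count of a gene's reads scaled to the library's total, in all 3 libraries of either genotype, and 12001 of the 12573 genes in the deposited table did. Libraries of *R90W/+* and *E168d2neo/+* mice (the latter with the same frameshift and a retained neomycin cassette) at P10 are given beside some results. WT libraries of postnatal day 21 (P21) were used to define genes that change with age.

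CRX is a paired-type homeodomain transcription factor of rod and cone photoreceptors, the cells that turn light into an electrical signal. It works with NRL and NR2E3 in rods, where genes of the light response are switched on and genes of the cone programme are held low, and with RXRG and THRB in cones. The R90W protein binds DNA poorly, whereas the E168d2 protein lacks the activation domain, keeps the homeodomain, and can occupy sites that the WT protein would use.

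The sites of both lesions were read from the WT mouse genome and are shown to locate the alleles. In build NCBIM37 (mm9) both lie in exon 4 of the 4 exons of *Crx*, on the minus strand of chromosome 7, within a reading frame of 299 codons. The codon is in capitals, on the coding strand from 5′ to 3′, and the windows span chr7:16453747-16453773 and chr7:16453513-16453539.
Codon of R90: tggttcaagaatCGTagggcgaaatgc
Codon of E168: agtccagcctcaGAGgctcctttgcct
The deposited values sum all reads of a gene, so the mutant and WT copies of *Crx* cannot be told apart in them.

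*Crx* itself was present in every library. It measured 1886, 1902 and 1837 CPM in *R90W/W*, 2175, 2095 and 2277 CPM in *E168d2/+*, and 1539, 1601 and 1481 CPM in WT. The 3 groups did not overlap, with WT lowest and *E168d2/+* highest. The difference between the mutants was -0.22 on the log2 scale (SE 0.052; limma, Benjamini-Hochberg adjusted p, here called FDR, 0.0165), below the 2-fold limit used for calls. All differences are in log2(CPM + 0.1) and are *R90W/W* minus *E168d2/+* unless another pair is named.

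Replicate C of *E168d2/+* stood apart from the other libraries. In that library 336 of the tested genes lay more than 0.5 (log2) from the mean of the other libraries of the group, against 64 and 76 genes in replicates B and A, and 16 to 28 genes in the *R90W/W* libraries. It also held 3530 CPM of 9 lens crystallin genes in sum, against 6.73 and 7.95 CPM in the other *E168d2/+* libraries and 7.34 to 7.99 CPM in *R90W/W*. Its part in the results was not tested, and results that rest on it are given without it. Among sex-linked genes, *Xist*, which is transcribed from the inactive X chromosome, was at 1393, 1025 and 1279 CPM in *R90W/W* and at 1858, 1812 and 2071 CPM in *E168d2/+* (difference -0.64, SE 0.1, FDR 0.00187). The Y-linked *Ddx3y* was higher by 0.42 (SE 0.066, FDR 0.00183), and the part of these differences in the results was not tested. Depth on genes, estimated from the step between CPM values, was 18.8 to 26.2 M reads in *R90W/W*, 15.9 to 21.1 M in *E168d2/+* and 13.9 to 17.1 M in WT. In bulk retina, fewer cells of a type and less RNA per cell cannot be told apart.

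The direct comparison called 42 genes higher in *R90W/W* (0.35% of genes tested) and 60 lower (0.5%). A call needed an FDR up to 0.05 and a change of 2-fold or more. Photoreceptor genes were called in both directions. The cone genes *Pde6h*, *Cnga3* and *Gngt2* were higher in *R90W/W*, and the rod genes *Pde6a* and *Gnat1*, the visual cycle enzyme *Rdh8* and the nuclear receptor *Ppara* were lower. At the FDR alone, 1056 genes were higher (8.8%) and 1280 lower (10.7%), while the median difference over all genes tested was 0.0047. Without *E168d2/+* replicate C, 38 genes were called higher and 72 lower, 98 of them shared with the 102 calls from all libraries, and 1829 and 1965 genes passed the FDR alone. Without *R90W/W* replicate A, B or C, 506, 560 and 477 genes were higher at the FDR and 692, 774 and 692 lower. Against WT, 70 genes were called higher (0.58%) and 190 lower (1.57%) in *R90W/W*, and 60 higher (0.498%) and 131 lower (1.09%) in *E168d2/+*, in fits that share the WT libraries.

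**Figure D1:**
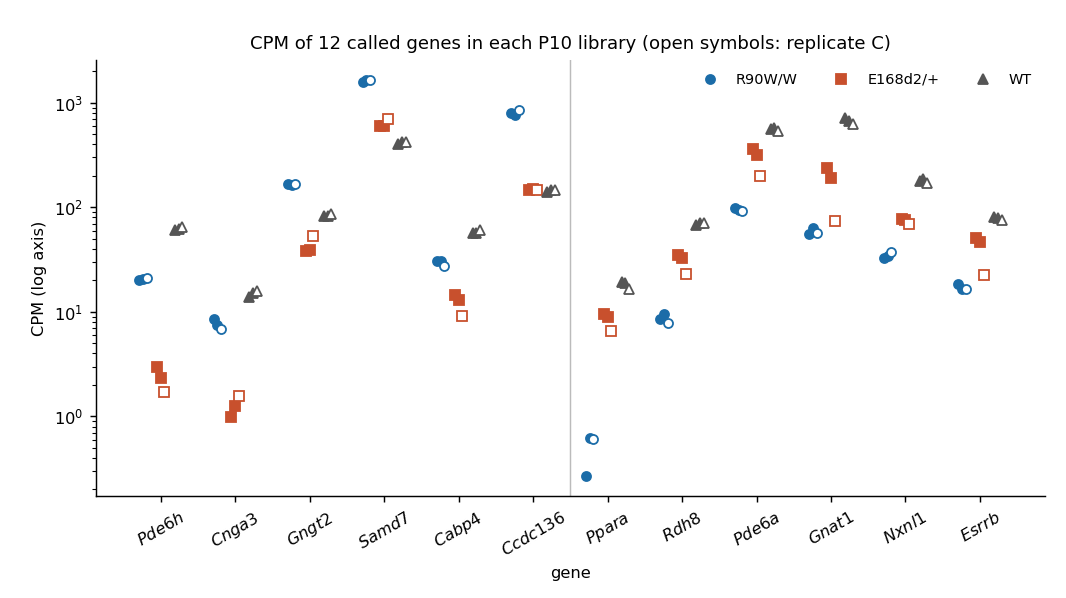
CPM on a log axis of 6 genes called higher (left) and 6 called lower (right) in *R90W/W* than in *E168d2/+*, with a point for each P10 library and open symbols for replicate C. *Pde6h* sits at 20.1 to 21.2 CPM in *R90W/W* and at 1.71 to 2.99 CPM in *E168d2/+*, while *E168d2/+* replicate C lies near the *R90W/W* libraries for *Gnat1* and *Esrrb*.

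Cone phototransduction genes gave the largest difference in favour of *R90W/W*. *Pde6h*, the inhibitory subunit of the cone phosphodiesterase, was at 20.1, 20.5 and 21.2 CPM in *R90W/W*, at 2.99, 2.33 and 1.71 CPM in *E168d2/+*, and at 61.2, 61.8 and 65.4 CPM in WT. Both mutants were below WT, and the gene entered the comparison through its *R90W/W* values alone. The gene lies at chr6:136903044-136917386 on the plus strand (mm9). The difference of 3.12 (SE 0.17, FDR 2.41e-06) was 8.68-fold, and each mutant was called lower than WT, with -1.60 in *R90W/W* (FDR 5.58e-14) and -4.72 in *E168d2/+* (FDR 5.44e-08).

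*Cnga3*, a subunit of the cone cyclic nucleotide-gated channel, measured 8.62, 7.43 and 6.79 CPM in *R90W/W* and 0.996, 1.26 and 1.55 CPM in *E168d2/+*, with WT at 14 to 16 CPM. Every *R90W/W* library was below every WT library, and this gene too entered the comparison through its *R90W/W* values alone. The difference was 2.51 (SE 0.18, FDR 1.05e-05) for this gene at chr1:37275181-37320229, plus strand.

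*Gngt2*, the cone transducin gamma subunit, lay on opposite sides of WT in the mutants. It was at 166 CPM ± 2.42 (SD, n = 3) in *R90W/W*, at 38.6, 38.8 and 52.8 CPM in *E168d2/+*, and at 82.4, 82.6 and 85.6 CPM in WT. The difference from WT was 0.99 in *R90W/W* (FDR 3.62e-13) and -0.96 in *E168d2/+* (FDR 1.58e-04), so that each missed the 2-fold limit against WT while the direct difference of 1.95 (SE 0.1, FDR 2.09e-06) passed it.

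Other cone genes of the cascade did not follow these 3. *Opn1sw*, the short-wavelength cone opsin, was at 24.3, 26.3 and 29.2 CPM in *R90W/W*, below its 48.3, 52.2 and 44.9 CPM in *E168d2/+* (difference -0.86, SE 0.082, FDR 7.01e-05). *Cngb3*, which encodes the partner subunit of the cone channel, was also lower in *R90W/W*, at 59.6 to 64.9 CPM against 107 to 112 CPM (difference -0.79, SE 0.052, FDR 5.94e-06). Both passed the FDR without reaching a 2-fold change, and *Cngb3* was above its WT range of 34.9 to 40.1 CPM in both mutants. *Opn1mw*, the middle-wavelength cone opsin, stayed under the 5 CPM limit and was not tested: it was at 0.691, 0.877 and 0.572 CPM in *R90W/W* and at 4.08, 2.77 and 2.4 CPM in *E168d2/+*, against 21.1 to 25.9 CPM in WT. The cone transducin alpha subunit *Gnat2* (0.15, FDR 0.121), the cone transducin beta subunit *Gnb3* (0.00, FDR 0.988), the catalytic subunit *Pde6c* (0.07, FDR 0.427) and cone arrestin *Arr3* (-0.17, FDR 0.449) did not pass the test, with SEs of 0.064, 0.048, 0.053 and 0.15.

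Of the rod genes of the cascade described here, 7 were lower in *R90W/W* at the FDR and 1 was higher. *Pde6a*, the catalytic alpha subunit of the rod phosphodiesterase, was at 98.9, 94.9 and 92 CPM in *R90W/W* and at 359, 315 and 200 CPM in *E168d2/+*, with WT at 534 to 579 CPM. The 3 groups kept apart, and the difference was -1.57 (SE 0.17, FDR 1.48e-04). *Gnat1*, rod transducin alpha, was at 55.1, 63.9 and 57.4 CPM in *R90W/W* and at 240, 191 and 73.5 CPM in *E168d2/+*. The libraries did not overlap, but replicate C of *E168d2/+* was close to *R90W/W* and the SE of 0.33 was the largest among the 20 tested genes of the cascade (difference -1.35, FDR 0.0187). The call was lost without any 1 of the *R90W/W* libraries or *E168d2/+* replicate B (FDR 0.0514 to 0.0844). *Gnat1* was far under its WT range of 626 to 716 CPM in all 6 mutant libraries.

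Smaller differences in the same direction passed the FDR for the rod genes *Gnb1* (-0.26), *Gngt1* (-0.34), *Pde6b* (-0.27), *Cnga1* (-0.30) and *Sag*, the rod arrestin (-0.32). *Cngb1*, the second subunit of the rod channel, was instead higher in *R90W/W* by 0.39 (SE 0.066, FDR 0.0029), at 203 to 208 CPM against 141 to 171 CPM. *Pde6g* had a difference of -0.28 (FDR 0.0557). Of the genes shared by rods and cones, *Rcvrn*, the calcium sensor recoverin, was at 70.2 to 82.4 CPM in *R90W/W* and 33.4 to 60.7 CPM in *E168d2/+* (0.66, FDR 0.0263), far below its WT range of 547 to 565 CPM, and *Guca1a* showed -0.05 (FDR 0.762). Over the cascade, 20 genes were tested, with a median difference of -0.21. In *R90W/W* 3 were called higher (15%, against 0.35% of all genes tested) and 2 lower (10%, against 0.5%). At the FDR alone 5 were higher (25%, against 8.8%) and 9 lower (45%, against 10.7%).

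**Figure D2:**
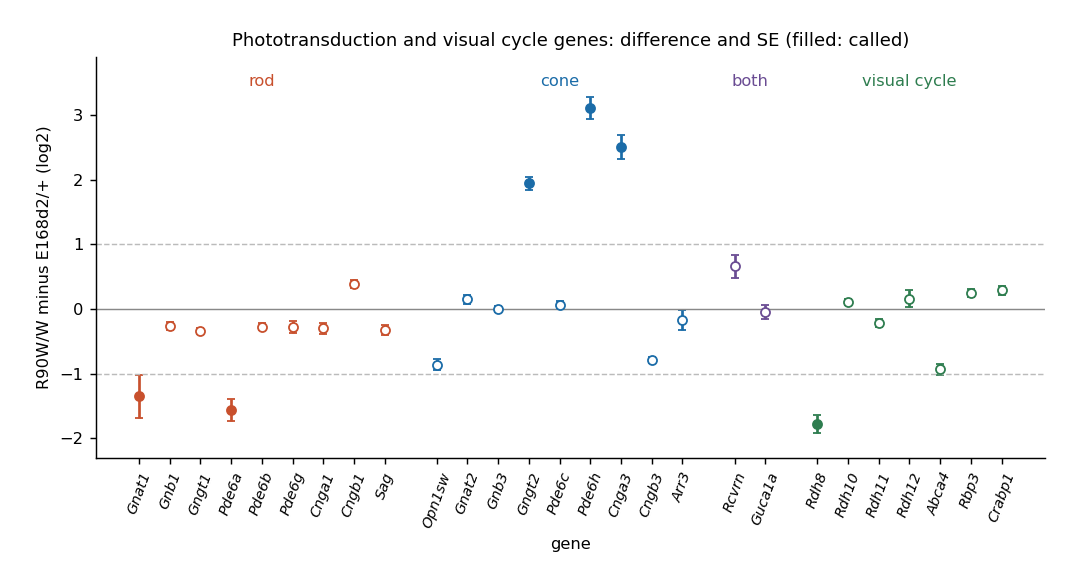
Difference between *R90W/W* and *E168d2/+* (log2, with SE as bars) for phototransduction genes grouped as rod, cone and shared, and for visual cycle genes, with filled points for called genes and dashed lines at 2-fold. *Pde6h*, *Cnga3* and *Gngt2* stand at 3.12, 2.51 and 1.95, and *Pde6a*, *Gnat1* and *Rdh8* at -1.57, -1.35 and -1.78.

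In the visual cycle, the path that returns used retinal to its light-sensitive form, 7 genes were tested. Only *Rdh8* was called, lower in *R90W/W* (14.3% of the list, against 0.5% of all genes tested). *Rdh8*, which reduces all-trans-retinal in outer segments, was at 8.62, 9.44 and 7.78 CPM in *R90W/W* and at 34.8, 32.8 and 23 CPM in *E168d2/+*, against 67.3 to 70.6 CPM in WT. All 3 groups were separate (difference -1.78, SE 0.14, FDR 2.62e-05). *Abca4*, the flippase that moves retinal out of the disc, was at 309 to 317 CPM against 505 to 660 CPM, a difference of -0.93 (SE 0.087, FDR 6.56e-05) that fell short of 2-fold with all libraries and was called at -1.05 without *E168d2/+* replicate C. *Rdh11* (-0.22, FDR 0.0375) was lower in *R90W/W*, and *Rbp3*, the retinoid carrier between cells (0.25, FDR 0.0156), and *Crabp1* (0.29, FDR 0.0133) were higher. *Rdh10* (0.11, FDR 0.13) and *Rdh12* (0.16, FDR 0.398) did not pass.

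Of 22 tested regulators of photoreceptor genes, 3 were called lower (13.6%, against 0.5% of all genes) and 2 higher (9.09%, against 0.35%) in *R90W/W*. At the FDR alone 7 were lower (31.8%, against 10.7%) and 8 higher (36.4%, against 8.8%). *Ppara*, a nuclear receptor that controls fatty acid oxidation, had the largest difference among them. It measured 0.266, 0.619 and 0.61 CPM in *R90W/W*, 9.63, 8.83 and 6.51 CPM in *E168d2/+*, and 16.6 to 19.3 CPM in WT. The *R90W/W* values were low but above 3 reads, which stood for 0.114 to 0.16 CPM in those libraries. The difference was -3.86 (SE 0.27, FDR 1.05e-05), and both mutants were called lower than WT. *Ppara* entered the comparison through its *E168d2/+* values alone. The gene lies at chr15:85565413-85633249 on the plus strand (mm9).

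*Ankrd33*, an ankyrin repeat protein of photoreceptors that limits CRX activity, was at 41.8, 38.4 and 40.9 CPM in *R90W/W* against 134, 127 and 95.6 CPM in *E168d2/+* and 129 to 135 CPM in WT. *E168d2/+* replicates A and B were within or next to the WT range and *R90W/W* was far below it (difference -1.54, SE 0.11, FDR 9.68e-06). *Esrrb*, a nuclear receptor needed for rod survival, was at 18.5, 16.7 and 16.4 CPM against 50.5, 47 and 22.4 CPM. Replicate C again lay near *R90W/W*, and the call (-1.13, SE 0.25, FDR 0.0106) was lost without *R90W/W* replicate B or C (FDR 0.052 and 0.0604) and fell under 2-fold without *E168d2/+* replicate A or B (-0.92 and -0.97).

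*Samd7*, a Polycomb-associated protein that helps to silence non-rod genes in rods, was higher in *R90W/W*. It measured 1582, 1641 and 1665 CPM there, 594, 606 and 702 CPM in *E168d2/+* and 403 to 419 CPM in WT. Both mutants were above WT and the 3 groups were separate (difference 1.37, SE 0.066, FDR 1.35e-06). *Rxrg*, the retinoid receptor of cones, had the same order, with 65.6 to 72.1 CPM in *R90W/W*, 29.7 to 33.7 CPM in *E168d2/+* and 11 to 14 CPM in WT (1.11, SE 0.066, FDR 3.48e-06).

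Among the other regulators, *Otx2*, the homeodomain factor upstream of *Crx*, was at 806 to 817 CPM in *R90W/W* and 528 to 597 CPM in *E168d2/+* (0.55, FDR 8.40e-05). *Nr1d1* (0.58, FDR 0.00374), *Rax* (0.51, FDR 0.00285), *Sall3* (0.32, FDR 0.0471), *Pias3* (0.23, FDR 0.00474) and *Mef2d* (0.18, FDR 0.0251) were also higher. *Nrl*, the factor that sets rod fate, was lower, at 829 to 933 CPM against 1129 to 1168 CPM (-0.38, SE 0.054, FDR 8.92e-04). *Ppargc1b* (-0.46, FDR 0.0398) and *Prdm1* (-0.34, FDR 0.0246) were lower too. *Nr2e3* (-0.16, FDR 0.0509), *Rorb* (0.15), *Thrb* (0.14), *Mef2c* (-0.19), *Casz1* (0.07), *Neurod1* (-0.01) and *Neurod4* (-0.02) did not pass the test.

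The 250 bases before the transcription start are printed for *Pde6h*, which had the largest difference in favour of *R90W/W*, and for *Samd7* and *Nxnl2*, which moved in opposite directions and hold the core letters bound by CRX. They were taken from RefSeq on GRCm38.p6 and chosen after the values were seen. The letters TAATCC were searched on both strands (GGATTA is the same site on the other strand), and matches are in capitals.
Pde6h, chr6:136954273-136954522, plus strand: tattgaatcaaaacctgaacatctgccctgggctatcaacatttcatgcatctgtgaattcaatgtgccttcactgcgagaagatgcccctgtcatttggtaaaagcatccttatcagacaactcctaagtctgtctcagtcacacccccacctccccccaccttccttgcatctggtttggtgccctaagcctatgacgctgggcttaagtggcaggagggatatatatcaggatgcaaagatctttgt
Samd7, chr3:30746043-30746292, plus strand: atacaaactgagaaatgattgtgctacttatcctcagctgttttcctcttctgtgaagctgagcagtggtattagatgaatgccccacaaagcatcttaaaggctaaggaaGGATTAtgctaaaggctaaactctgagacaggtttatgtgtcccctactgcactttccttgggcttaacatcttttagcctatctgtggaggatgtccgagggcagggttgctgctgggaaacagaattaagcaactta
Nxnl2, chr13:51170775-51171024, plus strand: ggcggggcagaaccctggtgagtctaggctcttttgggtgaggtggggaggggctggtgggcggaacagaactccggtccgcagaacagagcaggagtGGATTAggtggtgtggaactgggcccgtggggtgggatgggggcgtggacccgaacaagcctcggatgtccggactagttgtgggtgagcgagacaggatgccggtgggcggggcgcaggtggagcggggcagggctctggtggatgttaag
The match lies 139 bases before the start in *Samd7* and 152 bases before it in *Nxnl2*, and none is in this window of *Pde6h*. Of 11089 such windows of tested genes, 5.21% held the letters. Windows were found for only 31 of the 60 genes called lower and 29 of the 42 called higher, fewer than 80%, so a comparison of their shares was void.

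A list named for the outer segment and its discs, the light-sensing organelle, was lower in *R90W/W* where its members differed. The list is mixed, as it also holds genes of the connecting cilium, cell junctions and matrix, and thioredoxin-like proteins. Of 23 tested, 15 were lower at the FDR (65.2%, against 10.7% of all genes tested) and 0 were higher (0 also at an unadjusted p under 0.05 in limma), with a median difference of -0.40. Without *E168d2/+* replicate C, 20 of the 23 were lower at the FDR and the median was -0.37. The median of the list against the WT mean was -0.60 in each *R90W/W* library, and -0.09, -0.15 and -0.30 in the *E168d2/+* libraries. *Nxnl2*, a thioredoxin-like protein of photoreceptors, was at 25.5, 24.4 and 27.2 CPM in *R90W/W* and at 76, 73.7 and 61.9 CPM in *E168d2/+*, close to its WT range of 81.4 to 84.8 CPM. It was called (-1.45, SE 0.082, FDR 2.81e-06), as was its relative *Nxnl1*, the source of rod-derived cone viability factor, at 32.5 to 37.5 CPM against 69.6 to 78.1 CPM and 172 to 187 CPM in WT (-1.09, SE 0.069, FDR 4.99e-06).

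*Crb1*, a polarity protein at the junctions next to the inner segments, was at 99.2, 74.8 and 130 CPM in *R90W/W* and at 270, 269 and 275 CPM in *E168d2/+* (-1.45, SE 0.15, FDR 1.32e-04). Its spread was wider in *R90W/W* but the groups stayed apart. Below the 2-fold limit, *Rpgrip1*, a protein of the connecting cilium, showed -0.90, *Prom1*, which shapes discs, -0.64, and *Impg1* of the matrix between photoreceptors -0.63 (FDR 3.35e-06, 1.83e-05 and 4.51e-04). *Prph2* and *Rom1*, the disc rim proteins, differed by 0.11 and -0.02 and did not pass. Of 23 genes of cilium transport and the Bardet-Biedl complex, 11 were lower at the FDR (47.8%, against 10.7% of all genes tested). The 2 that were higher (8.7%) were near the share of all genes (8.8%), and the median was -0.17. In limma 0 were called, 12 and 2 had an unadjusted p under 0.05, and *Bbs12* showed -0.73 (FDR 6.09e-04).

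**Figure D3:**
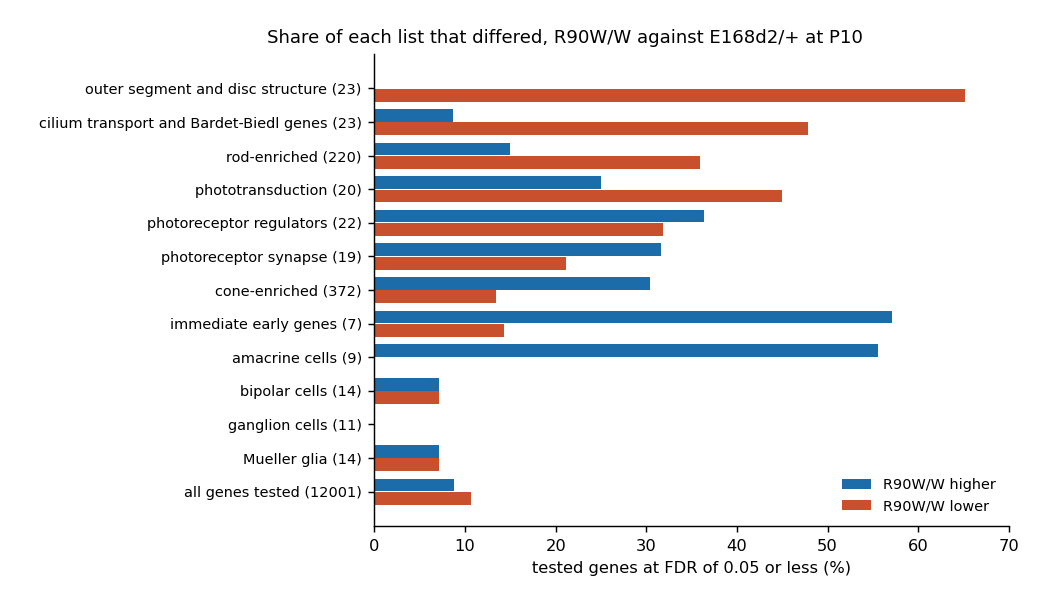
Share of the tested members of each gene list that differed at an FDR of 0.05 or less (%), with the number tested in parentheses and the bars split by direction. The outer segment list reached 65.2% lower in *R90W/W* and the cone-enriched list 30.4% higher, against 10.7% and 8.8% of all genes tested.

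Lists of rod-enriched and cone-enriched genes, taken from published retinas with and without *Nrl*, had medians of opposite sign. Of 220 rod-enriched genes tested, 16 were called lower in *R90W/W* (7.27%, against 0.5% of all genes) and 3 higher (1.36%, against 0.35%), with a median of -0.11. Of 372 cone-enriched genes, 20 were called higher (5.38%) and 2 lower (0.538%), with a median of 0.07. At the FDR alone, 79 rod-enriched genes were lower (35.9%, against 10.7% of all genes) and 33 higher (15%, against 8.8%). Of the cone-enriched genes 113 were higher (30.4%) and 50 lower (13.4%). Without *E168d2/+* replicate C, 20 of 224 rod-enriched genes were called lower and 3 higher, and 17 of 378 cone-enriched genes were called higher and 4 lower. The medians of the rod-enriched list against the WT mean were -0.47, -0.44 and -0.46 in the *R90W/W* libraries and -0.22, -0.24 and -0.35 in *E168d2/+*, and those of the cone-enriched list were 0.17 to 0.21 and 0.06 to 0.10.

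The largest rod-enriched calls besides *Ppara* were *Rnf207*, a RING finger protein, and *5430407P10Rik*. *Rnf207* was at 5.96, 5.16 and 5.95 CPM in *R90W/W* and at 44.6, 42.8 and 25.5 CPM in *E168d2/+* (-2.66, SE 0.18, FDR 8.62e-06). *Alpl*, tissue-nonspecific alkaline phosphatase, went against the list, with 24.4, 25.5 and 20.6 CPM in *R90W/W* and 8.73, 8.01 and 6.08 CPM in *E168d2/+* (1.63, SE 0.14, FDR 3.05e-05). Both mutants were far below the 85.9 to 94.2 CPM of WT. Among cone-enriched genes *Ccdc136*, a coiled-coil protein, was at 801, 761 and 846 CPM in *R90W/W* against 148, 149 and 145 CPM in *E168d2/+* and 141 to 145 CPM in WT. The difference between *E168d2/+* and WT did not pass the test (0.03, FDR 0.603), whereas *R90W/W* was 5.44-fold above *E168d2/+* (2.44, SE 0.049, FDR 2.53e-09). *Fabp7*, a fatty acid binding protein of glia that is also listed for cones, was at 179 to 184 CPM against 72.5 to 103 CPM and 36.3 to 42.4 CPM in WT (1.13, SE 0.11, FDR 7.47e-05).

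At the photoreceptor synapse 19 genes were tested, and *Cabp4*, the calcium-binding partner of the synaptic calcium channel, was called. It was at 30.6, 30.5 and 27.5 CPM in *R90W/W*, 14.6, 13.1 and 9.07 CPM in *E168d2/+* and 56.5 to 60.1 CPM in WT, so that *E168d2/+* lay farthest from WT (1.29, SE 0.15, FDR 2.68e-04). *Cplx3* (0.77, FDR 2.94e-05) and *Cacna2d4* (0.60, FDR 3.70e-05) were higher below 2-fold, and *Cplx4* (-0.66, FDR 0.0031) was lower. Over the list 6 genes were higher (31.6%, against 8.8% of all genes tested) and 4 lower (21.1%, against 10.7%) at the FDR. The 1 call was 5.26% of the list, against 0.35% of all genes called higher.

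Of 7 immediate early genes, which respond within minutes to cell activity or handling, 4 were higher in *R90W/W* at the FDR and 1 lower. These were 57.1% and 14.3% of the list, against 8.8% and 10.7% of all genes tested. In limma 2 were called higher (28.6%, against 0.35%). *Dusp1*, a phosphatase of MAP kinases, was at 18.3, 18.8 and 18.3 CPM against 7.49, 8.2 and 9.34 CPM (1.14, SE 0.095, FDR 3.02e-05). *Egr1*, a zinc finger transcription factor, was at 56.5 to 65.7 CPM against 19.6 to 35.6 CPM (1.11, SE 0.18, FDR 0.00223), with 0.85 and no call without *E168d2/+* replicate C.

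Markers of other cell types were counted over 10 joined lists, which do not hold *Fabp7*. In these lists for glia and their stress response, bipolar, amacrine, horizontal and ganglion cells, microglia, vessels, blood and pigment epithelium, 94 genes were tested by limma and 0 were called, where 0.35% and 0.5% of all genes tested were called higher and lower. At the FDR 10 were higher in *R90W/W* (10.6%, against 8.8% of all genes) and 6 lower (6.38%, against 10.7%), 22 and 10 had an unadjusted p under 0.05, and the median difference was 0.03. Without *E168d2/+* replicate C, 0 of 95 were called, 18 were higher and 25 lower at the FDR, and the median was -0.07. The change was widest in number for pigment epithelium genes, of which 0 of 9 were lower at the FDR with all libraries and 7 of 10 without replicate C (median -0.14 and -0.39). Mueller glia genes lower at the FDR went from 1 to 5 of 14, and vessel and pericyte genes from 2 to 4 of 9. Of the amacrine markers 5 of 9 were higher at the FDR (55.6%, against 8.8% of all genes), with a median of 0.20, and 7 of 9 were higher without replicate C. In the study's own list of 10 amacrine genes, 1 of 9 tested was higher at the FDR (11.1%), with a median of 0.20. Without replicate C it was again 1 of 9. Pigment epithelium genes summed to 228 to 240 CPM in *R90W/W*, to 254, 413 and 173 CPM in *E168d2/+*, and to 103 to 172 CPM in WT.

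Placed against WT, the calls fell into several arrangements. Of the 60 genes lower in *R90W/W*, 29 had the genotypes on opposite sides of the WT mean, 26 had both below WT and 5 had both above. Of the 42 higher genes, 15 were on opposite sides, 17 had both above and 10 had both below. A side is the sign of the difference from the WT mean, however small, as for *Rabepk* in *E168d2/+* (0.02, limma FDR 0.81). Only 1 of the 60 genes and 0 of the 42 were called against WT in opposite directions. *E168d2/+* was nearer to WT for 44 of the 60 and 30 of the 42 genes. The shares of all genes tested in these arrangements were not counted. In fits against WT, which share the WT libraries, 27 of the 60 were called lower in *R90W/W* and not called in *E168d2/+*, 8 were called lower in both, and 7 were called higher in *E168d2/+* and not called in *R90W/W*. Another 7 were called higher in *E168d2/+* and were too low to be tested in *R90W/W* against WT. Among the 42, 12 were called higher in *R90W/W* and not called in *E168d2/+*, and 9 were called lower in *E168d2/+* and not called in *R90W/W*.

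**Figure D4:**
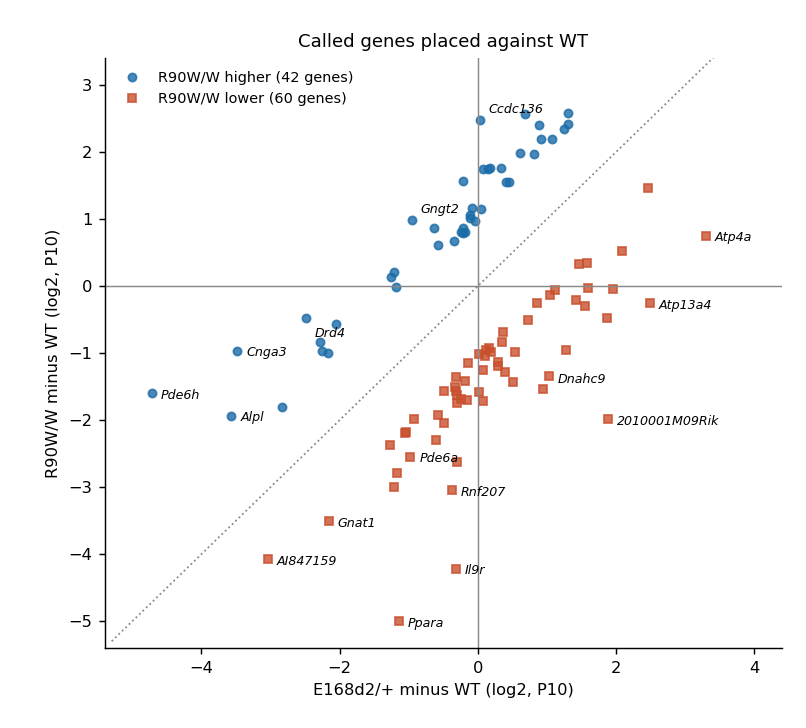
Differences from WT at P10 (log2) of the 102 called genes, *E168d2/+* on the horizontal axis and *R90W/W* on the vertical axis, with a dotted line where they are equal. *Ppara* and *Il9r* (-4.22) lie lowest in *R90W/W*, *Pde6h* and *Alpl* lowest in *E168d2/+* (-4.72 and -3.57), and *Atp4a* highest in *E168d2/+* (3.30).

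*Il9r*, the interleukin-9 receptor, was called lower in *R90W/W* than in either other group. It was at 0.372, 0.206 and 0.229 CPM in *R90W/W*, 5.26, 5.68 and 5.02 CPM in *E168d2/+* and 6.36 to 7.02 CPM in WT. The difference was -3.90 (SE 0.22, FDR 2.81e-06), the largest of the 60, and *E168d2/+* differed from WT by -0.32 (FDR 0.0642). *Il9r* entered the comparison through its *E168d2/+* values alone, so the lack of overlap is no further support.

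Several genes were called higher than WT in *E168d2/+* and were not called, or too low to be tested, in *R90W/W*. *Atp13a4*, a P-type ATPase, was at 6.45, 5.68 and 6.4 CPM in *E168d2/+*, against 0.686 to 0.98 CPM in *R90W/W* and 0.791 to 1.19 CPM in WT (-2.75, SE 0.17, FDR 4.50e-06). *Atp4a*, the catalytic subunit of the gastric proton pump, was at 6.12, 5.36 and 9.34 CPM against 0.992 to 1.13 CPM and 0.564 to 0.642 CPM (-2.56, SE 0.2, FDR 2.32e-05). *Slc27a2*, a fatty acyl-CoA synthetase, was at 18.1, 19.7 and 29.7 CPM against 3.3 to 5 CPM and 5.14 to 6.54 CPM (-2.34, SE 0.2, FDR 3.13e-05). These 3 genes entered the comparison through their *E168d2/+* values alone, so the lack of overlap with *R90W/W* is no further support.

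*Gm1614*, *2010001M09Rik*, *5430407P10Rik* and *Dnahc9*, which encodes an axonemal dynein heavy chain, lay below WT in *R90W/W* and above it in *E168d2/+*. *Gm1614* (chr18:35811821-35814841, mm9) and *2010001M09Rik* (chr18:35806920-35809021) lie close together on the minus strand. Whether they are a single locus was not tested. *Gm1614* was at 18.5, 19.7 and 17 CPM in *R90W/W*, 109, 112 and 91.5 CPM in *E168d2/+* and 47.9 to 59.6 CPM in WT (-2.49, SE 0.085, FDR 1.30e-07). *2010001M09Rik* was at 0.567 to 1.17 CPM, 12.2 to 13.2 CPM and 3.24 to 3.5 CPM in the same order (-3.87, SE 0.22, FDR 2.81e-06). *Dnahc9* was called in opposite directions against WT (-1.34, FDR 3.02e-08, and 1.03, FDR 0.0182), with 5.05, 4.69 and 5.07 CPM in *R90W/W*, 35.5, 31.2 and 15.6 CPM in *E168d2/+* and 10.6 to 14.9 CPM in WT. Replicate C of *E168d2/+* was just above the WT range for it. *5430407P10Rik* was at 12.1 to 13.3 CPM, 45 to 71.4 CPM and 23.7 to 24.8 CPM (-2.22, SE 0.14, FDR 5.63e-06). *2010001M09Rik* and *Dnahc9* entered the comparison through their *E168d2/+* values alone.

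Genes higher in *R90W/W* than in *E168d2/+* and WT included *Wnt9a*, a secreted WNT ligand, *Lin28a*, an RNA-binding protein that blocks let-7 maturation, and *Insm2*, a zinc finger factor. *Wnt9a* was at 20, 20.7 and 19.9 CPM against 4.86 to 6.02 CPM in *E168d2/+* and 2.3 to 4.38 CPM in WT (1.89, SE 0.098, FDR 1.82e-06). *Lin28a* was at 9.19 to 9.85 CPM against 2.77 to 2.99 CPM and 2.39 to 3.24 CPM (1.68, SE 0.11, FDR 5.63e-06). *Insm2* was at 15.9 to 17.7 CPM against 3.37, 4.23 and 7.42 CPM, and 4.96 to 6.18 CPM in WT (1.79, SE 0.23, FDR 5.23e-04). *Jam3*, a junctional adhesion molecule (1.18, FDR 2.81e-06), and *Igfn1* (1.25, FDR 0.00194, and 0.97 with no call without *E168d2/+* replicate C) had the same arrangement. *Wnt9a*, *Lin28a* and *Insm2* entered the comparison through their *R90W/W* values alone, so their lack of overlap with *E168d2/+* is no further support.

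Other genes were called lower than WT in *E168d2/+* and not called against WT in *R90W/W*. *Lactbl1*, a beta-lactamase-like gene, was at 202, 194 and 200 CPM in *R90W/W*, 83.9, 79.8 and 63 CPM in *E168d2/+* and 172 to 188 CPM in WT (1.40, SE 0.091, FDR 5.94e-06). *Rtn4rl2*, a Nogo receptor family member, was at 49.2 to 54 CPM, 16.3 to 21.1 CPM and 41.6 to 46.7 CPM (1.42, SE 0.097, FDR 8.30e-06). *Drd4*, the dopamine receptor of photoreceptors, was at 21.7, 25.7 and 15.7 CPM in *R90W/W* and at 7.45, 4.6 and 3.63 CPM in *E168d2/+* (2.03, SE 0.24, FDR 3.44e-04). *R90W/W* overlapped the *Drd4* range of WT, 25.3 to 31.9 CPM, in 1 of 3 libraries. *Drd4* entered the comparison through its *R90W/W* values alone.

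Libraries that the direct comparison did not use hold the same lesions in other doses. *R90W/+* has a WT copy beside the R90W copy, and *E168d2neo/+* makes less of the truncated protein than *E168d2/+*. Of the 54 genes lower in *R90W/W* that could be tested there, 36 were lower in *R90W/+* than in *E168d2neo/+* and 18 passed the FDR, while 18 were higher and 9 passed. In that comparison 2.89% of all genes were lower and 2.98% higher at the FDR. Of the 41 higher genes, 18 were higher in *R90W/+*, 13 of them at the FDR, and 23 were lower, 10 at the FDR. *Pde6h* (1.89, FDR 3.46e-08), *Cnga3* (1.38, FDR 9.91e-06), *Drd4* (2.66, FDR 2.81e-06) and *Alpl* (2.86, FDR 1.71e-07) were higher in *R90W/+* as well. Their mean levels were 58.9, 12.9, 48.4 and 79.3 CPM there and 15.8, 4.85, 7.54 and 10.7 CPM in *E168d2neo/+*. WT means were 62.8, 15, 28.7 and 90.4 CPM, so for *Pde6h*, *Cnga3* and *Alpl* *R90W/+* was nearer to WT than *E168d2neo/+* was. *Slc27a2* (-2.42, FDR 3.79e-07), *2010001M09Rik* (-2.17, FDR 1.21e-06), *Atp13a4* (-1.86, FDR 3.58e-04) and *Gm1614* (-1.62, FDR 1.21e-06) were lower again. *Samd7* (-0.61, FDR 3.47e-04), *Rxrg* (-0.64, FDR 7.42e-04) and *Fabp7* (-0.74, FDR 4.25e-05), higher in *R90W/W*, were among the 10 that were lower in *R90W/+* at the FDR. The rod genes *Gnat1* (2.47, FDR 4.73e-06) and *Pde6a* (0.91, FDR 3.11e-04) had the opposite sign, with means of 776 and 524 CPM in *R90W/+* and 136 and 277 CPM in *E168d2neo/+*, and *Ccdc136* did not pass (-0.25, FDR 0.159).

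**Figure D5:**
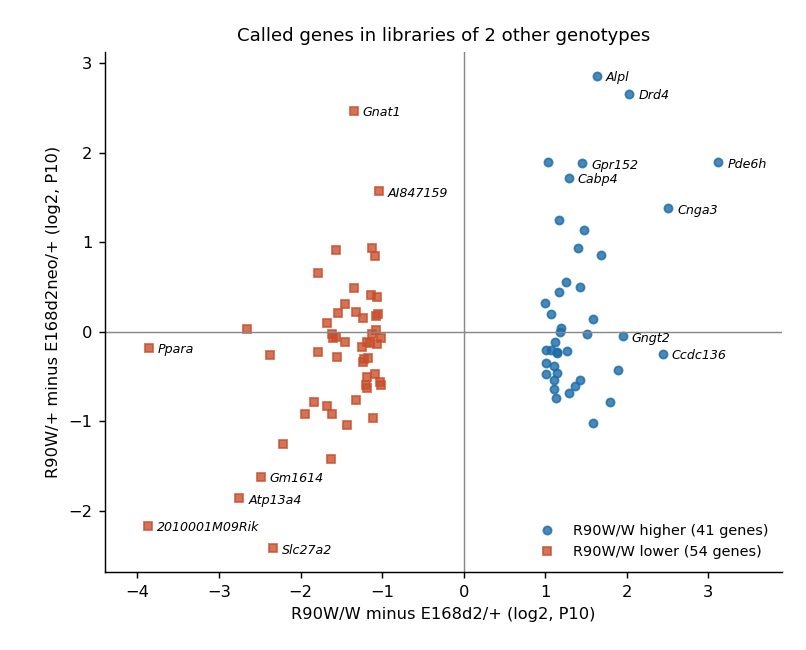
Differences (log2) of 95 called genes between *R90W/W* and *E168d2/+* (horizontal) and between *R90W/+* and *E168d2neo/+* (vertical), each a point coloured by its direction in the first comparison. *Pde6h*, *Cnga3*, *Drd4* and *Alpl* are positive on both axes, and *Gnat1* is negative on the first (-1.35) and positive on the second (2.47).

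Genes that change with age in WT retinas were counted in the direct comparison. Of 587 genes called higher at P21 than at P10 (4.81% of those tested with age), 406 were tested, with a median of 0.06. In *R90W/W* 9 were called higher (2.22%, against 0.35% of all genes tested) and 11 lower (2.71%, against 0.5%). Of 491 genes called lower at P21 (4.02%), 464 were tested, with a median of -0.02. In *R90W/W* 4 of them were called higher (0.862%, against 0.35%) and 14 lower (3.02%, against 0.5%). *Gnat1*, *Pde6a*, *Esrrb* and *Rnf207* were among the genes that rise with age and were lower in *R90W/W*, and *Alpl*, *Cabp4*, *Drd4* and *Dusp1* among those that rise and were higher. *Gm1614*, *Slc27a2* and the collagen gene *Col17a1* were among those that fall with age and were lower.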

How the data were processed

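Per the labels and the study's methods, the authors used TopHat2 2.0.5 for alignment to mm9 and HTSeq 0.6.1p1 for reads per UCSC gene, and deposited CPM values, each gene's reads scaled to the library's total, for 30 libraries. The deposited table also holds 32 columns of the authors' own comparisons, edgeR 3.6.8 log2 fold changes with log2 mean levels and p-values with false discovery rates, none of which was used. The labels name both an mRNA kit and ribosomal RNA depletion. Whether retina pools were separate litters is not stated, so p-values measure the spread between these libraries. The mice that gave the *E168d2neo/+* libraries retain the selection cassette.

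Differences were tested with limma 3.58.1 (R 4.3.3; trend, two-sided, Benjamini-Hochberg) on log2(CPM + 0.1), over genes at 5 CPM or more in all 3 libraries of either group. A call needed an FDR of 0.05 or less and a fold change of at least 2, and folds of low genes are understated on this scale. Calls were tested on simulated data with independent noise for each gene and library. The simulation held no outlying library, so it does not show how the calls fare with *E168d2/+* replicate C. Reads per library were estimated from the CPM step (values under 1000 reads whole within 0.1 read), and 5 CPM stood for 79.3 to 131 reads in the mutant libraries. Counting floors of 3 reads cover counting error only. The members and gene lists were chosen with earlier results of these data known. Named genes were *Crx*, the tested phototransduction, visual cycle and regulator genes, the 8 largest calls in each direction, up to 6 calls in each direction that lay on opposite sides of WT, and up to 4 calls of each other list. Other genes named were chosen after their values were seen. Names that a spreadsheet had made into dates (20 symbols) were left out, and a gene of the lists is not reported here. Alternatives covered the added CPM, the filter, scaling, the trend, a replicate block, a joint fit and leaving out each library. List counts without *E168d2/+* replicate C were added after seeing the data.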

Additional observations from a re-analysis of the deposited data

Results flagged for a closer look

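Lens crystallin genes, which the comparisons do not use, summed to 3530 CPM in *E168d2/+* replicate C, against 6.73 to 7.99 CPM in the other mutant libraries and 4.96 to 8.82 CPM in WT. The 9 genes of that list did not pass the filter on low values, so 0 were tested, and the part of this in other genes was not tested. Without this library 110 genes were called, 98 of them among the 102 calls made with it.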

How the results depend on the processing

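The number of called genes was 94 to 119 under 15 alternatives, against 102. Of 1125 values of 75 named genes, 1106 kept their direction and side of the threshold. Leaving out a library, 98 to 110 genes were called, the count at the FDR alone ran from 1169 to 3794 (477 to 1829 higher and 692 to 1965 lower), and the median of the cone-enriched list from 0.06 to 0.10, with the highest value without *E168d2/+* replicate B. The cause was not tested. Small differences changed sign when a library was left out, *Casz1* from -0.04 to 0.16, *Neurod1* from -0.07 to 0.05, *Neurod4* from -0.09 to 0.11, *Rdh12* from -0.02 to 0.29 and *Guca1a* from -0.16 to 0.02. The reversals came without *E168d2/+* replicate C for *Casz1*, *Neurod1*, *Neurod4* and *Rdh12*, without its replicate B for *Guca1a*, without *R90W/W* replicate C for *Neurod1* (0.03) and *Neurod4* (0.02), and without *R90W/W* replicate A for *Neurod4* (0.01). None of these passed the test with all libraries. With the replicate letter as a block 103 genes were called, 102 of them shared. Deviations of same-lettered libraries correlated by -0.02, 0.02 and 0.03, and those of unlike letters by -0.07 to 0.09. These values showed no pairing by letter, and whether the letters mark a shared batch was not tested. A count test on recovered reads was planned and not run. With 3 libraries a group, 0.1 is the smallest exact permutation p, so single-gene calls rest on limma.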

Other observations

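Gene families were looked at after the values were seen, so the counts here and in the next paragraph are a description. Over all genes tested, 8.8% were higher and 10.7% lower in *R90W/W* at the FDR. Calls were made for 0.35% higher and 0.5% lower. Of 18 semaphorins tested, which guide axons and cell contacts, 7 were higher in *R90W/W* at the FDR and 0 lower, with a median of 0.18, and *Sema7a* (1.19) and *Sema6c* (1.07) were called. Of 3 genes of the Nogo receptor family, *Rtn4rl2* (1.42) and *Rtn4rl1* (1.07) were called higher.

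Of 32 collagen genes, 4 were called lower in *R90W/W* and 0 higher, while 8 were lower and 4 higher at the FDR and the median was 0.05. The called genes were *Col17a1* (-1.94), *Col5a3* (-1.68) and the basement membrane chains *Col4a3* (-1.55) and *Col4a4* (-1.13). *Col4a4* entered the comparison through its *E168d2/+* values alone. Of 6 axonemal dynein heavy chains, *Dnahc9* (-2.37) and *Dnahc2* (-1.11) were called lower.

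*Crx* lies on chromosome 7, next to which knock-in lines can keep sequence of the donor strain. Of 102 called genes 7 were on that chromosome (6.86%, against 7.39% of genes tested), and 1, *Ppm1n*, was within 10 Mb of *Crx* (0.98%, against 1.05%).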
